A study of Mus musculus with 3 samples.

Results

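The genes described here are 37 interferon-stimulated and antigen processing genes, a list made by gene name and function. Of the 37 genes, 35 had at least 1 probe on the array, out of 20660 mouse genes that could be named, and no probe was matched to Mx1 or Mx2. The 35 genes were read by 45 probes, of which 43 were printed once, the B2m probe was printed in 2 spots and the Tap1 probe in 10. A probe was called well above background by the scanner software's own flag, and 33 of the 35 genes passed it on all 3 arrays. Irf7 passed on the BMS614 array alone and Oasl1 on none. These numbers describe the brightest probe of each gene, and no spot of any member was saturated or marked as an outlier.

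The cells were NIH3T3, an established line of mouse embryonic fibroblasts that the labels give as wild type. They were grown to confluence in serum-containing medium and collected 24 h after the start of treatment. One culture was untreated (None), another received 20 µM AR7, a compound designed around the retinoic acid receptor alpha (RARα) that raises chaperone-mediated autophagy, and the last received 20 µM BMS614, a selective RARα antagonist. Both compounds were dissolved in DMSO, and whether the None culture received DMSO is not given in the sources used here. Each condition was 1 culture on 1 array of Cy3-labelled RNA, so the compound and the culture cannot be told apart, and no test between conditions was possible. The comparison asks whether either RARα ligand moved the resting interferon programme of fibroblasts.

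Interferons are secreted when a cell senses foreign nucleic acid. Type I interferon binds its receptor, the JAK kinases phosphorylate STAT proteins, and a complex that holds STAT2 and IRF9 binds the interferon-stimulated response element (ISRE) in target promoters. Interferon gamma acts at the gamma-activated site (GAS). The target genes code for RNA sensors, enzymes and GTPases that restrict viruses, a ubiquitin-like modifier, chemokines and the machinery that loads peptides onto MHC class I. Many of them are kept at a low tonic level in unstimulated fibroblasts, where IRF1, STAT2 and IRF9 themselves belong to the programme.

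The response element can be read directly in the promoters of several of these genes, and 6 windows are shown as examples. They come from the IFIT and OAS, GTPase, ISG15, chemokine and MHC class I groups, and none is from a transcription factor or sensor. They lie upstream of the annotated start in RefSeq promoters of build GRCm38.p6, are written 5′ to 3′ along the gene, and carry in capitals the ISRE core (GAAA, any 2 bases, GAAA) or its reverse complement, with overlapping copies written as 1 run. The genes are Isg15 (chr4:156200835-156200936, minus strand), Ifit1 (chr19:34640745-34640853, plus strand), Oas1a (chr5:120907526-120907585, minus strand), Gbp3 (chr3:142559959-142560043, plus strand), Cxcl10 (chr5:92349053-92349139, minus strand) and B2m (chr2:122147508-122147597, plus strand).
Isg15: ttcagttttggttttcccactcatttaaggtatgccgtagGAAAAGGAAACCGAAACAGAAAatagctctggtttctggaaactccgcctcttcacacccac
Ifit1: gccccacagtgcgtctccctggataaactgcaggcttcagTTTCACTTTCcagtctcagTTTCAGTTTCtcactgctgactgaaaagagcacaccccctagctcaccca
Oas1a: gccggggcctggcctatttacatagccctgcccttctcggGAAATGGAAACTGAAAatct
Gbp3: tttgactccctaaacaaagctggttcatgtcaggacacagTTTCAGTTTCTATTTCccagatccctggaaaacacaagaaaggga
Cxcl10: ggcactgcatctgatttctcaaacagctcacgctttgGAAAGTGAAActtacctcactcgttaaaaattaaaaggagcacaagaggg
B2m: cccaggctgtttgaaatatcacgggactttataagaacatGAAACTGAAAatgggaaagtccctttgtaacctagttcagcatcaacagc
The Isg15 window held 3 overlapping copies, Ifit1, Oas1a and Gbp3 held 2 each, and Cxcl10 and B2m held 1. Windows of 250 bases before to 50 after the start were at hand for 28 of the 37 genes, and the core, searched on both strands, was found in 14 of them (50%), beside 3.99% of 27025 genes and 3.44% of 32851 promoters in the same table. The GAS core TTCNNNGAA was found in 8 of the 28 genes (28.6%), among them Irf1, beside 9.55% of genes and 8.3% of promoters. These are matches of letters, and no binding was measured.

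Most of the list was read at levels far from the floor of the arrays. Values below are normalized signals on a log2 scale, so that a difference of 1 is 2-fold, and each difference carries the SD of the log2 difference between repeated spots of probes at that brightness, called the spot SD. This SD came from 266 probes printed 10 times and covers spots only, not cultures. It was 0.39 for the dimmest bin and 0.05 for the brightest in AR7 over None, so the 28 genes whose mean log2 signal reached 8 were measured far more precisely than the 5 dimmer ones. A signal can only be compared for the same probe across arrays.

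No gene of the list differed by 2-fold in any of the 3 comparisons. In AR7 over None 0 of 33 genes passed 2-fold, where 1.01% of all named genes measured on either array did, and 0 passed 1.5-fold, beside 3.77%. In BMS614 over None 0 of 34 passed 2-fold (1.04% of all named genes) and 1 passed 1.5-fold (4.14%), which was Ifih1. In AR7 over BMS614 0 of 34 passed 2-fold (0.992%) and 1 passed 1.5-fold (4.66%), again Ifih1, whose probe was among the dimmest. The differences that were present were small and leaned to 1 side with BMS614, where 24 of 33 genes (72.7%) read lower than in None, beside 50.6% of all named genes.

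**Figure D1:**
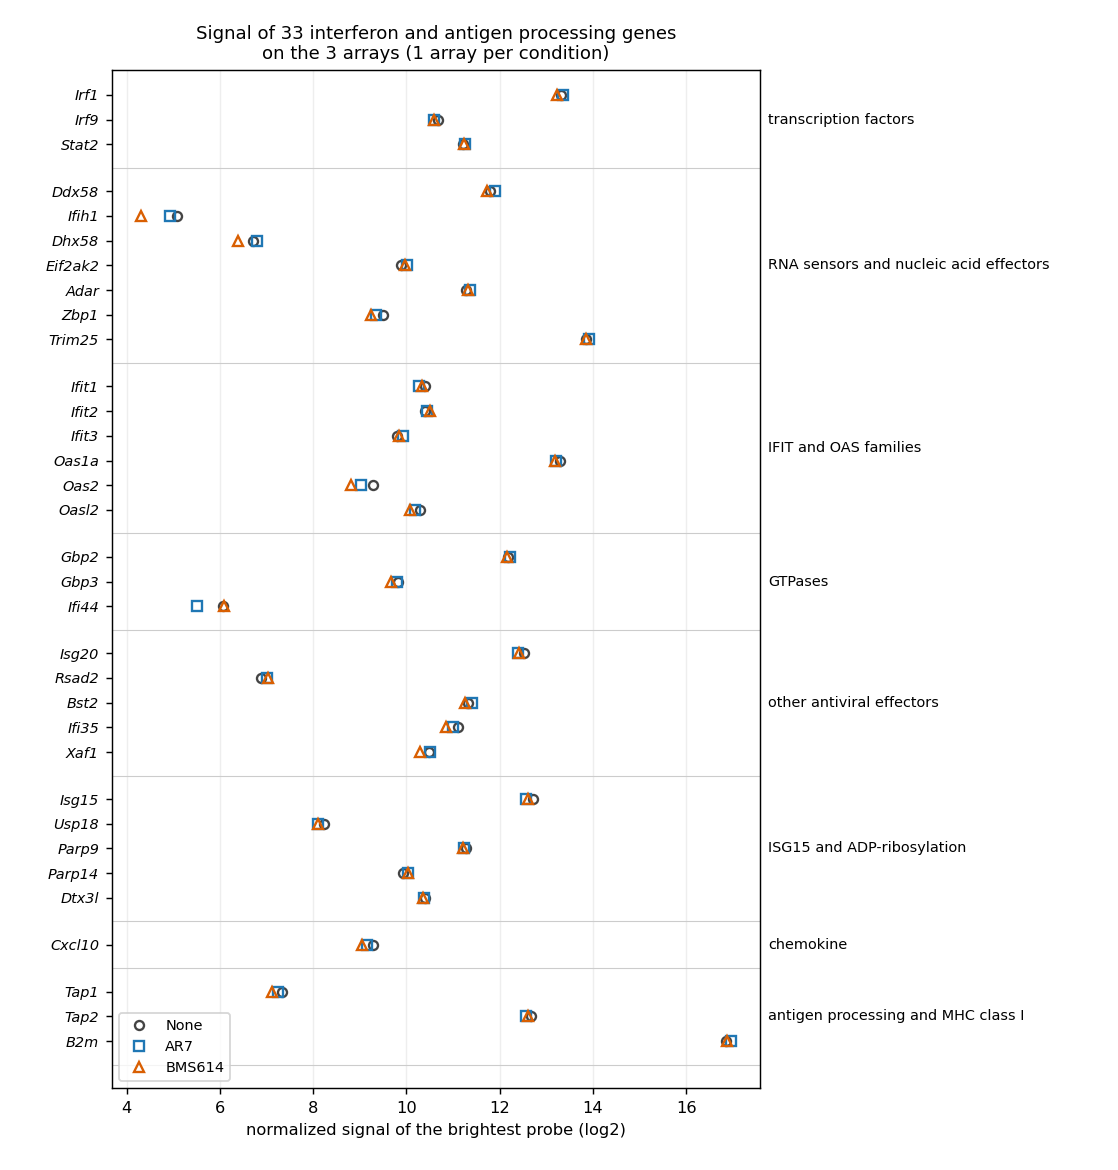
Normalized log2 signal of the brightest probe (horizontal axis) for the 33 listed genes well above background on all 3 arrays (vertical axis, grouped by role), with 1 symbol per array: circle None, square AR7, triangle BMS614. The 3 symbols of most genes overlap, and Ifih1, Oas2 and Ifi44 are the genes whose symbols stand visibly apart.

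Among the transcription factors, Irf1, which drives interferon and MHC class I genes, read 13.32 in None, 13.36 with AR7 and 13.22 with BMS614. Irf9, the DNA-binding partner of the STAT complex, read 10.68 in None, 10.58 with AR7 and 10.59 with BMS614. Stat2, its other partner, read 11.21, 11.26 and 11.23 in the same order. Each of the 3 factors stayed within 0.14 across the arrays. The difference between AR7 and BMS614 for Irf1, 0.14 with a spot SD of 0.04, was the only one of them past 2 spot SD. Irf7, which amplifies interferon alpha production, read 4.64, 4.33 and 4.27 and was well above background with BMS614 only, so no fold is given. A second Irf1 probe, for another transcript, was also well above background with BMS614 only, at 4.58 beside 3.97 in None and 3.92 with AR7.

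The sensors and nucleic acid effectors split by brightness. Ddx58 (RIG-I, a sensor of viral RNA ends) read 11.79 in None, 11.89 with AR7 and 11.72 with BMS614, so AR7 and BMS614 differed by 0.17 with a spot SD of 0.05. Ifih1 (MDA5, a sensor of long double-stranded RNA) read 5.09, 4.93 and 4.31, and its difference of -0.77 with BMS614 stood beside a spot SD of 0.33. That value ranged from -0.77 to -0.27 over the scalings tried, and its second probe was well above background on no array. Dhx58 (LGP2, a regulator of the sensors) read 6.71, 6.80 and 6.38, and its difference of -0.33 with BMS614 was inside 2 spot SD of 0.21. The brightest probes of these 3 RIG-I-like receptors read lowest with BMS614, past 2 spot SD for Ddx58 against AR7 and for Ifih1 against None, the latter under 2 of the 5 other scalings only. A second Ddx58 probe read 7.48, 7.64 and 7.60, lowest in None, with AR7 above BMS614 by 0.04, inside 2 spot SD.

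Zbp1, a sensor of Z-form nucleic acid linked to necroptosis, read 9.50 in None, 9.34 with AR7 and 9.23 with BMS614, a difference of -0.26 with BMS614 (spot SD 0.10), and its second probe was well above background on no array. The kinase Eif2ak2 (PKR), which shuts off translation on binding double-stranded RNA, read 9.88, 10.00 and 9.97. Adar, which edits adenosine in double-stranded RNA, read 11.28, 11.37 and 11.32, and Trim25, the ubiquitin ligase that acts with RIG-I, read 13.84, 13.91 and 13.84. Eif2ak2, Adar and Trim25 lay within 2 spot SD of None with both compounds. A second Adar probe differed from None by 0.13 with AR7 and 0.16 with BMS614, each past 2 spot SD. By their brightest probes all 7 genes of this group were higher with AR7 than with BMS614, by 0.03 to 0.61, where 49.6% of all named genes were, and Ddx58 was the 1 of them past 2 spot SD. The second Adar probe was at -0.03 there.

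The IFIT proteins bind viral RNA and the OAS enzymes make the oligoadenylates that activate RNase L. Ifit1 read 10.40 in None, 10.26 with AR7 and 10.32 with BMS614. Ifit2 read 10.41, 10.44 and 10.49, and Ifit3, its neighbour on the chromosome, read 9.79, 9.92 and 9.84. No IFIT difference passed 2 spot SD, and the 3 genes did not share an order of the arrays.

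The brightest probes of Oas1a, Oas2 and Oasl2 did share one, with None highest and BMS614 lowest. Oas1a read 13.30 in None, 13.21 with AR7 and 13.19 with BMS614, and its difference of -0.11 with BMS614 (spot SD 0.05) was just past 2 spot SD, while its second probe gave -0.02, inside it, and read lowest with AR7. Oas2 read 9.28, 9.03 and 8.80. It differed from None by -0.25 with AR7 (spot SD 0.08) and by -0.48 with BMS614 (spot SD 0.10), or 0.71-fold, and AR7 exceeded BMS614 by 0.23 (spot SD 0.09). Oas2 was the only listed gene past 2 spot SD in all 3 comparisons, and over the scalings tried its BMS614 difference ran from -0.49 to -0.42. Oasl2, a relative with ubiquitin-like domains, read 10.29, 10.18 and 10.07, a difference of -0.22 with BMS614 (spot SD 0.07). Its neighbour Oasl1 was well above background on no array. Of the family outside the list, Oas3 read 5.53, 5.51 and 5.79, highest with BMS614 and inside 2 spot SD, and Oas1g was well above background with AR7 (4.50) and BMS614 (4.53) but not in None (4.03). The OAS and IFIT genes belong to families of close copies, and how far a probe also reads a relative was not tested.

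The guanylate-binding proteins are GTPases that attack the membranes of intracellular pathogens. Gbp2 read 12.17 in None, 12.22 with AR7 and 12.15 with BMS614. Gbp3 read 9.82, 9.81 and 9.67, with a difference of -0.15 with BMS614 (spot SD 0.07), just past 2 spot SD and inside it under 1 of 5 other scalings. The dim probe of Ifi44, an interferon-induced protein with a predicted GTP-binding region, read 6.06, 5.50 and 6.08. Its difference of -0.55 with AR7 was the most negative of the list in that comparison and was inside 2 spot SD of 0.39.

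Of the other antiviral effectors, Ifi35 and Xaf1 separated BMS614 from the rest. Ifi35, an interferon-induced partner of NMI, read 11.11 in None, 11.00 with AR7 and 10.85 with BMS614, a difference of -0.26 with BMS614 (spot SD 0.07), and AR7 exceeded BMS614 by 0.16 (spot SD 0.05). Xaf1, a pro-apoptotic antagonist of XIAP, read 10.49, 10.51 and 10.29, so that BMS614 differed by -0.19 from None (spot SD 0.07) and AR7 exceeded it by 0.22 (spot SD 0.05). A second Xaf1 probe gave -0.26 for BMS614 over None, on the same side, but -0.15 for AR7 over None against 0.03 from the brighter probe.

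Bst2 (tetherin, which holds budding virions at the cell surface) read 11.33, 11.41 and 11.26, and AR7 exceeded BMS614 by 0.15 (spot SD 0.05) while neither passed 2 spot SD from None. Isg20, an exonuclease for single-stranded RNA, read 12.52, 12.39 and 12.42, and its difference of -0.13 with AR7 (spot SD 0.05) passed 2 spot SD. Rsad2 (viperin, which makes a chain-terminating nucleotide) read 6.89, 7.00 and 7.03 from a dim probe, inside 2 spot SD throughout. The second Isg20 probe differed from None by -0.10 with AR7, on the same side, and by 0.04 with BMS614, on the other.

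Isg15, the ubiquitin-like modifier, was lower than None with both compounds on both of its probes. The brighter probe read 12.70 in None, 12.56 with AR7 and 12.60 with BMS614, differences of -0.15 (spot SD 0.06) and -0.10 (spot SD 0.05). The second probe read 7.99, 7.57 and 7.72, differences of -0.42 (spot SD 0.13) and -0.27 (spot SD 0.12). It was the 1 gene of the 7 with several probes on all arrays whose probes both passed 2 spot SD in both comparisons with None. Both comparisons use the same None array, so they are not independent readings.

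Usp18, the protease that removes ISG15, read 8.23 in None, 8.10 with AR7 and 8.10 with BMS614, inside 2 spot SD. Parp9 and Dtx3l form a complex of an ADP-ribosyltransferase and a ubiquitin ligase, and with Parp14 they lie side by side on the chromosome. Parp9 read 11.27, 11.23 and 11.20, Dtx3l read 10.39, 10.39 and 10.36, and Parp14 read 9.93, 10.02 and 10.04. No difference of these 3 neighbours passed 2 spot SD. A dim second Dtx3l probe read 4.56, 4.84 and 5.21, also inside it.

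Cxcl10, a chemokine for activated T cells and a usual readout of interferon signalling, read 9.28 in None, 9.14 with AR7 and 9.04 with BMS614. Its difference was -0.24 with BMS614 (spot SD 0.10) and -0.14 with AR7 (spot SD 0.08), the former past 2 spot SD and the latter inside it. Over the scalings tried the BMS614 value ran from -0.25 to -0.20.

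Tap1 and Tap2 form the transporter that carries peptides into the endoplasmic reticulum, and B2m is the light chain of MHC class I. Tap1 gave the best view of spot error in the list, since its probe was printed 10 times on each array. The 10 spots ran from 7.05 to 7.52 in None (mean 7.33 ± 0.17, SD over spots), from 6.85 to 7.51 with AR7 (7.25 ± 0.21) and from 6.82 to 7.33 with BMS614 (7.12 ± 0.16), so the spots of the arrays overlapped as groups. Paired by position, BMS614 was lower than None at 10 of 10 positions, by a mean of -0.21 (SE 0.04 over spots), and AR7 was lower at 8 of 10, by a mean of -0.08 (SE 0.04). AR7 exceeded BMS614 at 7 of 10 positions, by a mean of 0.13 (SE 0.05). Under 1 of the 5 other scalings the BMS614 difference was at 2 spot SD, -0.13. These are repeats of 1 hybridization each and say nothing of a second culture.

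**Figure D2:**
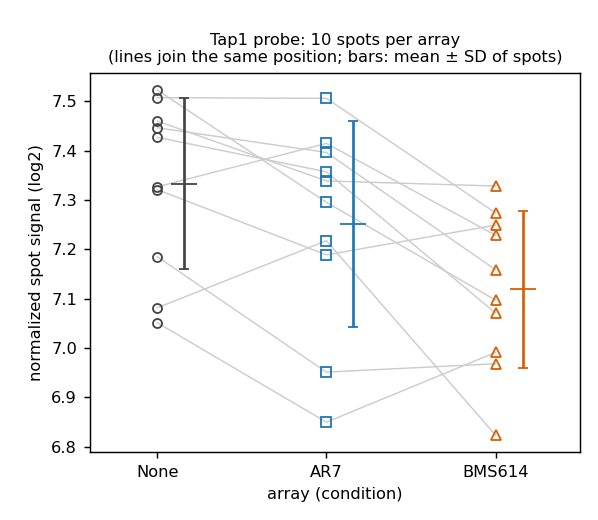
Normalized log2 signal (vertical axis) of the 10 spots of the Tap1 probe on the None, AR7 and BMS614 arrays (horizontal axis). Grey lines join spots at the same position, and the bars beside the points are the mean ± SD over spots, 7.33 ± 0.17, 7.25 ± 0.21 and 7.12 ± 0.16.

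Tap2 read 12.67 in None, 12.57 with AR7 and 12.60 with BMS614, inside 2 spot SD. B2m read 16.86, 16.96 and 16.88. It was the only listed gene higher than None past 2 spot SD with AR7, at 0.09 (spot SD 0.04), which held under 1 of 5 other scalings, and the lowest value was 0.05. AR7 exceeded BMS614 by 0.08 (spot SD 0.03).

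Counted over the list, AR7 left the genes evenly spread about None. Higher values were read for 15 of 33 genes and lower for 18 (54.5%), where 51.6% of 13805 named genes were lower, and the median difference was -0.012 beside -0.005 over those genes. The range ran from -0.55 (Ifi44) to 0.13 (Ifit3). Past 2 spot SD there were 1 higher gene (B2m) and 3 lower genes (Oas2, Isg20 and Isg15), together 12.1% of the list, where 9.44% of all named genes were higher and 9.43% lower by that much and 18.9% in either direction. Under 3 spot SD as the limit there were 0, beside 6.97% of all named genes.

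BMS614 gave the uneven count. Lower values were read for 24 of 33 genes (72.7%) and higher for 9, where 50.6% of all named genes were lower, and the median was -0.076, or 0.949-fold, beside -0.002 over all named genes. Among the 28 genes whose mean log2 signal reached 8, 21 were lower (75%), beside 49.7% of named genes as bright. Past 2 spot SD there were 11 lower genes (33.3%), where 12.9% of all named genes were, and 0 higher, where 13.3% were. The 11 were Ifih1, Zbp1, Oas1a, Oas2, Oasl2, Gbp3, Ifi35, Xaf1, Isg15, Cxcl10 and Tap1, which took in sensors, OAS enzymes, a GTPase, the modifier, the chemokine and the transporter. Under all 5 other scalings 8 of the 11 stayed past 2 spot SD, all but Ifih1, Gbp3 and Tap1. At 3 spot SD 4 remained, Oas2, Oasl2, Ifi35 and Tap1, where 5.61% of all named genes were lower by that much.

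Averaging all probes of a gene gave 21 of 33 lower, with Irf1, Ddx58 and Dtx3l turning through further probes that read higher than None. Macrophage and leukocyte markers moved on the same array: their summed linear signal was 29917 in None, 30794 with AR7 and 25093 with BMS614, mostly from 1 Itgam probe, with Csf1r at -0.19 and Itgam at -0.27 past 2 spot SD, Lyz2 at -0.22, Cd14 at 0.01 and Adgre1 at 0.27 inside it, and Ptprc not well above background in None. Further probes gave -0.24 for Csf1r, past 2 spot SD, and 0.08 and 0.30 for Itgam, inside it. Other markers past 2 spot SD with BMS614 were endothelial Kdr at -0.15 and fibroblast Thy1 at -0.11, Col1a1 at 0.25 and Fn1 at 0.17. The part of these markers in the result was not tested. In a bulk culture fewer cells of a type and less RNA per cell cannot be told apart.

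**Figure D3:**
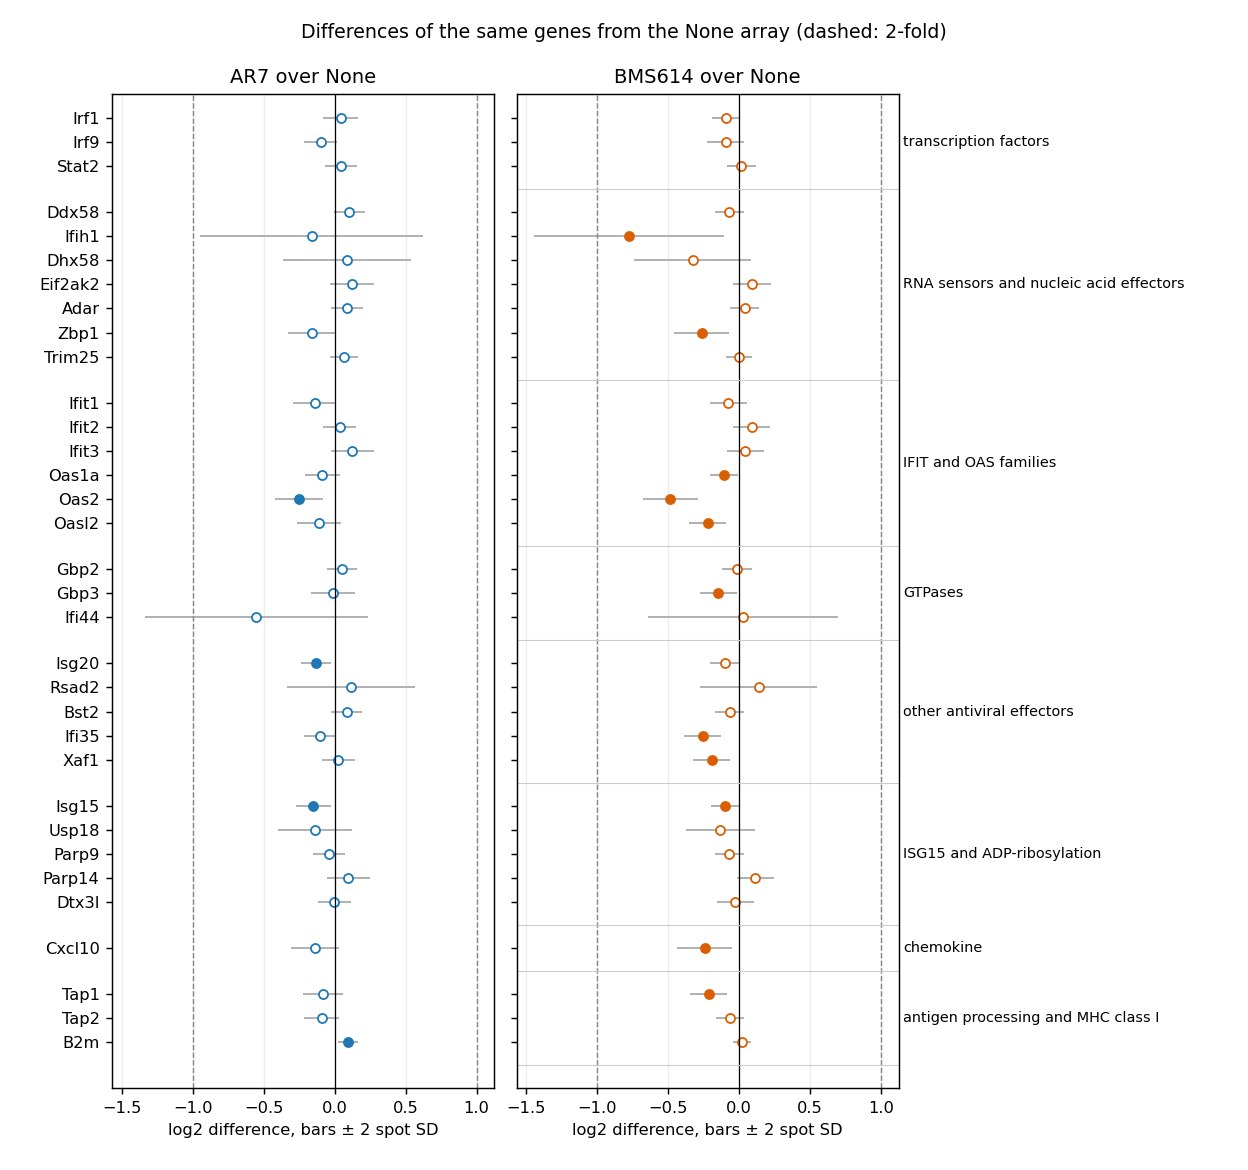
Log2 difference (horizontal axis) of each listed gene (vertical axis, grouped by role) for AR7 over None (left) and BMS614 over None (right), with bars of ± 2 spot SD and dashed lines at 2-fold. Filled points lie past 2 spot SD, 4 of 33 with AR7 and 11 of 33 with BMS614, and all 11 are left of 0.

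Set directly against each other at the same dose and time, the compounds differed for this list by a median of 0.067 in AR7 over BMS614, beside 0.000 over all named genes. AR7 was higher for 23 of 33 genes (69.7%), where 49.6% of all named genes were, and lower for 10. Past 2 spot SD there were 8 higher genes, Irf1, Ddx58, Oas2, Gbp3, Bst2, Ifi35, Xaf1 and B2m (24.2%, where 14.4% of all named genes were), and 0 lower, where 14.1% were. At 3 spot SD there were 4, Irf1, Ddx58, Bst2 and Xaf1, where 7.14% of all named genes were higher by that much. Markers of cell type differed too. All 8 fibroblast markers were lower with AR7 than with BMS614, where 49.9% of all named genes were. Of all markers, Col1a1, Col1a2, Thy1 and Krt14 were lower past 2 spot SD, and Csf1r, Itgam and Kdr higher. Their part in the result was not tested. The size of a difference between cultures treated alike is unknown here, so no interval for the compounds themselves can be given.

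The order of the 3 arrays summarises these counts. BMS614 was the lowest array for 18 of 33 genes (54.5%), against 35.4% of all named genes, and the highest for 4 (12.1%, against 34.7%). None was the highest array for 17 (51.5%), against 34.8%, and AR7 for 12 (36.4%, against 30.6%). The 3 comparisons share their arrays, so each count follows in part from the others.

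**Figure D4:**
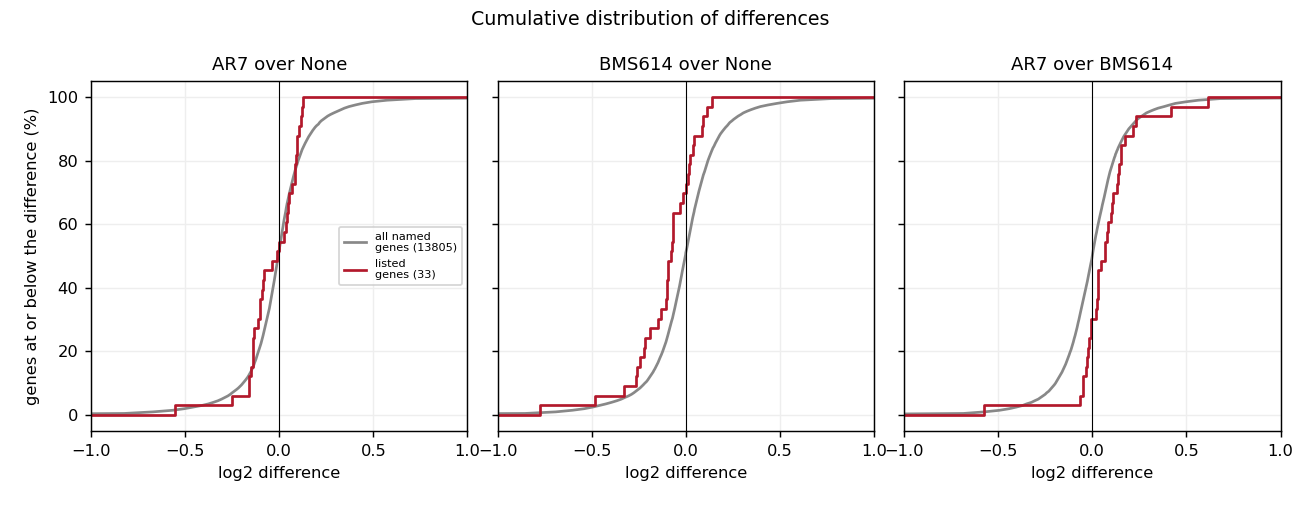
Cumulative percent of genes (vertical axis) at or below each log2 difference (horizontal axis, drawn from -1 to 1) for the 33 listed genes (red steps) and 13805 named genes (grey line) in the 3 comparisons. The lines cross near 0 for AR7 over None, the red line lies to the left for BMS614 over None (median -0.076) and to the right for AR7 over BMS614 (median 0.067).

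With BMS614 the 14 listed genes that held the ISRE core had a median difference of -0.068, with 9 lower (64.3%), and the 12 measured genes whose window lacked it had a median of -0.095, with 9 lower (75%). Of other named genes, the 400 that held the core had a median of -0.009, with 51% lower, and 50.5% of the 10583 that lacked it were lower. With AR7 the medians were 0.049 and -0.042 for listed genes with and without the core, and -0.016 for the 400 others. Of the genes whose windows are printed above, Isg15, Oas1a, Gbp3 and Cxcl10 were lower than None past 2 spot SD with BMS614, Ifit1 was at -0.08 inside it, and B2m was at 0.02. Of the listed genes that held the core but are not printed, Ifih1 was lower past 2 spot SD. The rest, Stat2, Ddx58, Eif2ak2, Ifit3, Gbp2, Rsad2 and Bst2, were inside it.

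The ligands and the signalling chain above these genes were read from a second list. Of 8 interferon genes with a probe, 3 were well above background on all arrays. Ifnb1, Ifna4, Ifne and Ifnk were so on no array, and Ifng on the AR7 and BMS614 arrays only, at 4.96 and 4.76 beside 4.23 in None. Ifna1 read 7.63 in None, 7.52 with AR7 and 7.41 with BMS614, Ifna2 read 7.09, 7.15 and 6.92, and Ifnl3 read 8.33, 8.26 and 8.16. By these probes the 3 were lower with BMS614 and inside 2 spot SD. A dim second Ifnl3 probe read 4.95, 4.58 and 4.27, a difference of -0.68 with BMS614 (spot SD 0.33), just past 2 spot SD. Probes for these short, closely related genes may not tell them apart, which was not tested.

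Of the receptor chains, those of type I interferon and interferon gamma were well above background on all arrays and lay within 2 spot SD of None. Ifnar1 and Ifnar2, the type I receptor, differed from None by 0.10 and -0.05 with AR7 and by 0.04 and -0.005 with BMS614, and Ifngr1 and Ifngr2, the interferon gamma receptor, by -0.006 and 0.04 with AR7 and by 0.10 and 0.03 with BMS614. Ifngr1 was lower with AR7 than with BMS614, by -0.10 (spot SD 0.05), past 2 spot SD. Il10rb, shared with the interferon lambda receptor, differed by 0.05 and 0.0003, and the probe of Ifnlr1 was well above background on no array. Among the kinases Jak1 differed by 0.10 with AR7 and 0.08 with BMS614 and Jak2 by 0.03 and -0.02. Tyk2, the kinase bound to Ifnar1, stood apart: it read 8.63 in None, 8.62 with AR7 and 8.25 with BMS614, a difference of -0.38 with BMS614 (spot SD 0.10). Stat3 differed from None by -0.02 with AR7 and 0.02 with BMS614, inside 2 spot SD. Between the compounds it was lower with AR7, by -0.04 (spot SD 0.01), past 2 spot SD. Socs1 and Socs3, feedback inhibitors of the JAKs, differed by -0.11 and -0.11 with AR7, the former past 2 spot SD, and by -0.05 and -0.11 with BMS614, the latter past it.

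Further genes of the same programme leaned the same way with BMS614. Over the 82 genes of the wider lists measured on all arrays, 54 were lower with BMS614 (65.9%, median -0.061) and 46 with AR7 (56.1%, median -0.011), where 50.6% and 51.6% of all named genes were. Past 2 spot SD, 20 were lower than None with BMS614 (24.4%, where 12.9% of all named genes were) and 8 higher (9.76%, where 13.3% were). With AR7 10 were lower (12.2%, where 9.43% were) and 6 higher (7.32%, where 9.44% were). Of 38 other interferon-stimulated genes 26 were lower with BMS614, among them Gbp6, a GTPase, at 9.06 in None, 8.79 with AR7 and 8.40 with BMS614. Its difference was -0.66 (spot SD 0.10) from that probe, while a dimmer second probe read 6.45, 6.50 and 6.30. Parp12, an ADP-ribosyltransferase, gave the largest AR7 difference of these lists, at 5.98 in None, 4.41 with AR7 and 5.79 with BMS614, or -1.56, from 1 dim spot per array with a spot SD of 0.39. Cgas, of the nucleic acid sensing list, differed from None by 0.02 with AR7 and -0.07 with BMS614 on its brightest probe. A dimmer Cgas probe read 7.47, 6.24 and 6.18, differences of -1.23 (spot SD 0.23) and -1.29 (spot SD 0.21). Another gave -0.31 and -0.22, inside 2 spot SD. Of the 38 other interferon-stimulated genes, 10 were lower than None past 2 spot SD with BMS614 and 4 higher. Of the higher ones, Gbp5 was at 0.49 (spot SD 0.21) and Ifitm3 at 0.08 (spot SD 0.01). Lgals3bp was at 0.11 (spot SD 0.05) and Helz2 at 0.19 (spot SD 0.07). A second Lgals3bp probe gave -0.07, inside 2 spot SD. The probes of Ifi27l2a, Ifitm3 and Ifi27 gave the highest signals of these 38 genes in None. They differed from None by -0.11, 0.03 and -0.17 with AR7, past 2 spot SD for all but Ifitm3. With BMS614 they differed by -0.14, 0.08 and -0.06, past it for all but Ifi27.

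In the wider antigen processing list 12 of 17 genes were lower with BMS614 (70.6%, beside 50.6% of all named genes), and the median was -0.087 beside -0.002. Past 2 spot SD 6 were lower (35.3%, where 12.9% of all named genes were) and 4 higher (23.5%, where 13.3% were). The class I heavy chains H2-D1, H2-Q4 and H2-T23 were at -0.09, -0.33 and -0.11, each past 2 spot SD, while H2-K1 gave 0.04 (spot SD 0.01) from its brightest probe and -0.11 (spot SD 0.05) from another, past it in opposite directions. These heavy chains are close copies, and how far their probes tell them apart was not tested. The list also held the opposite sign: Cd74, the invariant chain of MHC class II, read 5.55 in None, 5.56 with AR7 and 6.66 with BMS614, a difference of 1.12 (spot SD 0.33) from a dim probe. Calr, a chaperone of class I folding, differed by 0.22 with BMS614 (spot SD 0.05). The probe of Psmb8, an immunoproteasome subunit, was well above background on no array.

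The label of the cells was checked against markers. All 8 fibroblast markers were well above background on every array, with a summed linear signal of 783627 in None, 784231 with AR7 and 819632 with BMS614. Of 4 endothelial markers 2 were well above background in None, 3 with AR7 and 2 with BMS614, and of 4 epithelial markers 2 were on each array, with Epcam and Krt18 on none. Of 6 macrophage and leukocyte markers 5 were well above background in None and 6 with each compound, Csf1r and Itgam among them. The 75th percentile of raw spot intensity was 692 in None, 780.5 with AR7 and 909 with BMS614, and normalization set the 3 distributions equal.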

How the data were processed

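NIH3T3 RNA of 3 cultures, each on 1 one-colour Agilent mouse 8x60K array, was analysed from the deposited scanner files. Those hold spot intensity values that the authors' scanner software extracted, with its flags for background, saturation and outliers, and per the labels and the study's methods the authors processed them with oligo and RMA. A deposited table of normalized intensity values, whose columns have 75th percentiles of 598.779 to 599.906, served as an alternative. From the median pixel intensity of each spot, the RMA background model was fitted again (R 4.3.3, limma 3.58.1), quantile normalization was applied over the 3 arrays, log2 was taken and unmarked spots of a probe were averaged. Probes were named through RefSeq accessions without versions (GRCm38.p6 table; 27235 of 55681 probes matched 1 gene), and the brightest probe stood for a gene. A probe counted as well above background if most of its spots were flagged so; where it was so on 1 array of a pair only, the difference was taken as a bound.

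The error is the SD of the log2 difference between spots at the same positions of 266 probes printed 10 times, in 10 bins of signal, divided by the square root of the number of spots. The number of arrays limits the precision: with 1 array per condition no test was made and no p-value is given. The background and normalization steps were tested on simulated arrays with known changes. The members and the other gene lists were chosen with earlier results of these data known, as was the limit of 2 or 3 spot SD. By the rule for named genes every listed gene was accounted for, and of the wider lists the ligands, the signalling chain, the brightest genes and genes with a 1.5-fold difference were named; others were named after their values were seen, and 1 gene of the signalling chain is not reported here. Promoters were those of the RefSeq table, searched on both strands. Figures were drawn with matplotlib 3.10.9.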

Additional observations from a re-analysis of the deposited data

How the results depend on the processing

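The counts and medians were computed again from the scanner's own processed signal with 75th percentile scaling, with normexp background correction (offset 50), with that scaling in place of quantile normalization, with scaling on the spike-in controls, from the deposited table, with other filters on dim probes and averaging every probe that a gene has. The median BMS614 difference stayed negative in all 7 of these alternatives that apply to it, from -0.093 to -0.065, and the median of AR7 over BMS614 stayed positive, from 0.032 to 0.068. The count of genes lower with BMS614 ran from 21 to 25 of 33. The median AR7 difference changed sign, from -0.039 to 0.104, and the value of 0.104 came from spike-in scaling, under which the median of all named genes was 0.096, so that the listed genes lay 0.007 above it. Spike-in scaling moved the median of all named genes by 0.34 in BMS614 over None and by -0.24 in AR7 over BMS614, and values there were taken relative to it. With no filter on dim probes 1 gene passed 2-fold in BMS614 over None, which was Oasl1, and at 1.5-fold 1 gene did there and 1 in AR7 over BMS614. At 3 spot SD in place of 2 the counts went from 4 to 0 in AR7 over None, from 11 to 4 in BMS614 over None and from 8 to 4 in AR7 over BMS614. With spike-in scaling taken relative to that median throughout, the sign held under all 5 scalings for 29 of 33 genes in AR7 over None, 29 in BMS614 over None and 31 in AR7 over BMS614, and calls past 2 spot SD held for 3 of 4, 8 of 11 and 7 of 8. The counts of direction, those of calls over scalings and the limit of 3 spot SD were added after the data were seen. The use of mean in place of median pixel intensity was not run, since no mean intensity column was at hand. No paired analysis was possible because there was 1 array of each kind, and all 3 arrays lay on 1 slide, so no slide effect could be estimated, and culture, extraction and labelling cannot be told apart from the compound.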
